A study of Mus musculus with 60 samples.

Results

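The contrast described here compares RNA of mouse embryonic stem cells (mESCs) that carry the MCM2-2A mutation with and without depletion of POLE4, after 24 h in retinoic acid (RA). The members are 6 of the 60 RNA sequencing samples of the study, chosen by their labels: 3 libraries of dPOLE4 MCM2-2A T24 and 3 of Ctrl MCM2-2A T24. All 6 came from E14JU mESCs in which POLE4 is fused to a degron (POLE4-dTAG) and which bear the MCM2-2A mutation, and all belong to a line labelled MCM2-2A clone 2, so that the mutation and this clone cannot be told apart. Cells grown in serum and LIF received the degrader dTAG at 1 µM (dPOLE4) or the solvent DMSO (Ctrl) for 24 h, and were then moved to medium with RA and without LIF for 24 h (T24). Whether dTAG stayed in the RA medium is not given in the sources used here, so dPOLE4 at T24 names the treatment before RA and not a measured absence of POLE4 at harvest. Used for comparison were the same 2 treatments at T24 in POLE4-dTAG cells with unmutated MCM2 (WT), and in MCM2-2A cells before RA (T0) and after 12 h (T12) and 60 h (T60), each with 3 libraries a group. The question addressed by the contrast is how loss of POLE4 alters transcription in MCM2-2A cells on their way out of pluripotency.

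As background, POLE4 is a small accessory subunit of DNA polymerase epsilon, the leading strand polymerase, and binds histones together with POLE3. MCM2 is a subunit of the replicative helicase that binds histones through its N-terminal tail, and the 2A mutation disables this binding. POLE3 and POLE4 help to pass parental histones, with their modifications, to the leading strand behind the fork, and MCM2 helps to pass them to the lagging strand. RA activates nuclear receptors that switch on the 3′ Hox genes and RA-degrading enzymes, and together with the withdrawal of LIF it moves mESCs through a formative state, marked by OTX2 and POU3F1, towards neural fates.

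Counts of sequenced fragments per gene and per repeat subfamily, together called features, were compared with edgeR's quasi-likelihood test. A feature was called differentially expressed (DE) when its Benjamini-Hochberg adjusted p over all tested features was below 0.01 and its log2 fold change (dPOLE4 relative to Ctrl) exceeded 0.58 in size, which is 1.5-fold. Fold changes are given on the log2 scale ± their standard error. Levels are given as CPM, the count scaled to a common library size, library by library in the order of replicates 1, 2 and 3, and positions refer to mm10. The study calls the 3 replicates biological, and whether they were separate cultures is not given in the sources used here, so p-values measure the spread between these samples, and because the samples are bulk RNA, fewer cells of a type and less RNA per cell cannot be told apart. Library totals ran from 11967264 to 24827756 counts in Ctrl and from 14605305 to 25217581 in dPOLE4. The 10 embryonic stem cell markers, Pou5f1 and Sox2 among them, summed to 3263 to 3591 CPM in Ctrl and 3006 to 3207 CPM in dPOLE4, against 5836 to 6406 CPM in Ctrl MCM2-2A at T0. The 8 marker genes of the RA response, such as Cyp26a1 and Stra8, summed to 888 to 915 CPM in Ctrl and 741 to 787 CPM in dPOLE4, against 54.8 to 62.2 CPM at T0. The markers of both labels, stem cell origin and RA treatment, were present in every library. Since dTAG removes the protein, the RNA of Pole4 is no check of the depletion, and it lay at 29.4, 28.7 and 27.2 CPM in Ctrl and 25.4, 25.2 and 22.9 CPM in dPOLE4 (log2 fold change -0.21, adjusted p = 0.134).

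Of 18441 tested features, 188 were DE (1.02%), of which 95 were up-regulated (0.515%) and 93 down-regulated (0.504%). An unadjusted p below 0.05 was found for 3888 of them (21.1%), the share to set beside the list counts at that threshold below. All 188 had 3 dPOLE4 libraries on one side of the 3 Ctrl libraries, as had 26.5% of all tested features. The changes were moderate: the median fold among DE features was 1.69 for up- and 1.71 for down-regulated ones, and 16 up- and 18 down-regulated features changed more than 2-fold. The up-regulated features were the less abundant ones, with a median of 9.25 CPM in Ctrl against 19.16 CPM for the down-regulated ones. Among the up-regulated features 86 were protein-coding genes and 9 were other genes, and among the down-regulated ones 91 were protein-coding genes and 2 were repeat subfamilies, MMERGLN-int and MMERGLN_LTR. With the replicate number as a block 288 were DE (1.56%), 186 of the 188 among them, although the numbers are not shown to pair the samples. The count fell to 102 without Ctrl replicate 1 and to 87 without Ctrl replicate 2, and all 188 features kept their direction with each of the 6 libraries left out. A test against a 1.5-fold change (glmTreat) called 0 features at an adjusted p below 0.01, with 306 at an unadjusted p below 0.05 and a lowest adjusted p of 0.0191.

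**Figure D1:**
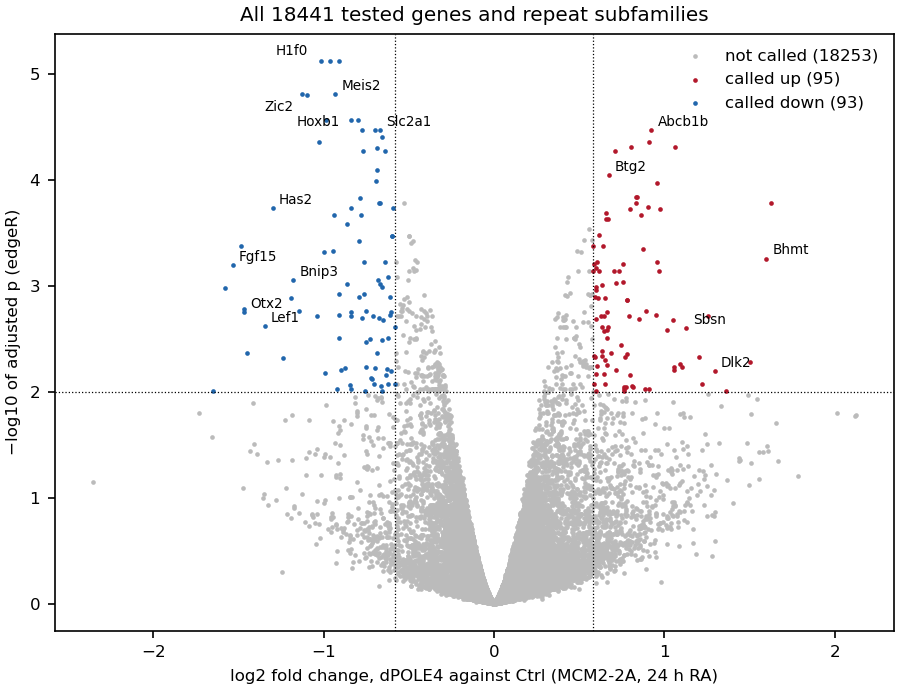
Each point is 1 of the 18441 tested features, with the log2 fold change of dPOLE4 against Ctrl in MCM2-2A cells at T24 on the horizontal axis and −log10 of edgeR's adjusted p on the vertical axis, and dotted lines at the thresholds. The 95 up-regulated (red) and 93 down-regulated (blue) features are similar in number, and H1f0, Meis2 and Zic2 lie among those with the lowest adjusted p.

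Several transcription factors of the formative state, which lies between naive pluripotency and lineage priming, were down-regulated. Of 17 tested members of a list of formative and primed pluripotency genes, 7 were down-regulated (Zic2, Pou3f1, Zic5, Sox11, Otx2, Sall2 and Lef1), 1 was up-regulated (Krt18), and the median log2 fold change was -0.40, against 0.003 over all tested features. Zic2 (ENSMUSG00000061524, chromosome 14 from 122475435 to 122479852), a zinc finger factor, was measured at 33.4, 39 and 40 CPM in Ctrl and 16.9, 16.6 and 17.6 CPM in dPOLE4 (log2 fold change -1.13 ± 0.09, adjusted p = 1.55e-05). Its highest dPOLE4 library lay well below its lowest Ctrl library. The related Zic5 (ENSMUSG00000041703, chromosome 14 from 122456795 to 122465677) lay at 26.1, 33.3 and 29.6 CPM in Ctrl and 18.4, 15.9 and 17.8 CPM in dPOLE4 (log2 fold change -0.77 ± 0.10, adjusted p = 5.99e-04). Both Zic genes therefore had groups that did not overlap, with the dPOLE4 libraries close to each other. Pou3f1 (ENSMUSG00000090125, chromosome 4 from 124656807 to 124660655), a POU factor of the formative state also known as Oct6, was at 16.9, 19.9 and 16.1 CPM in Ctrl and 8.7, 10.9 and 8.31 CPM in dPOLE4 (log2 fold change -0.95 ± 0.12, adjusted p = 4.69e-04). Otx2 (ENSMUSG00000021848, chromosome 14 from 48657677 to 48673819), the homeobox factor that drives exit from the naive state, was low in all 6 libraries, with 6.77, 5.71 and 3.92 CPM in Ctrl and 2.18, 2.55 and 1.45 CPM in dPOLE4 (log2 fold change -1.47 ± 0.23, adjusted p = 0.00178). Lef1 (ENSMUSG00000027985, chromosome 3 from 131110471 to 131224356), a nuclear effector of Wnt signalling, was at 4.34, 5.47 and 4.25 CPM in Ctrl and 1.33, 2.62 and 1.82 CPM in dPOLE4 (log2 fold change -1.35 ± 0.22, adjusted p = 0.00239). In each of these 3 genes the dPOLE4 libraries lay below every Ctrl library. Sox11 was at 14.7, 13.7 and 16.4 CPM in Ctrl and 8.27, 9.1 and 8.79 CPM in dPOLE4 (log2 fold change -0.76 ± 0.11, adjusted p = 0.0012). Sall2 lay at 40.3, 43.1 and 34.2 CPM in Ctrl and 25.1, 28.9 and 23.9 CPM in dPOLE4 (log2 fold change -0.60 ± 0.09, adjusted p = 0.00178). Otx2 and Lef1 had the largest folds of the list at the lowest counts, while Zic2 and Zic5 had lower standard errors at higher counts. Zic2, Zic5, Pou3f1 and Sox11 were DE with any 1 library left out. Otx2 was not DE without Ctrl 1 or 2 (adjusted p up to 0.0182), nor Lef1 without Ctrl 1 or 2 or dPOLE4 1 (adjusted p up to 0.0324). Sall2 was not DE without Ctrl 1 or 2 or dPOLE4 1 or 3 (adjusted p up to 0.0238), nor Krt18 without Ctrl 1 or 2 or dPOLE4 2 or 3 (adjusted p up to 0.0129). The list held 4 down-regulated members without Ctrl replicate 1 and 4 without Ctrl replicate 2.

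The lists of the other stages of pluripotency had medians nearer to 0. All 14 tested genes of general pluripotency were lower in dPOLE4, with a median log2 fold change of -0.21. Pou5f1, the core pluripotency factor, was measured at 495, 505 and 442 CPM in Ctrl and 435, 499 and 406 CPM in dPOLE4 (log2 fold change -0.10, adjusted p = 0.488), so the groups differed by less than 1.5-fold. Of 29 naive pluripotency and self-renewal genes 0 were DE in edgeR and 0 in DESeq2, 15 had an unadjusted p below 0.05, and the median was 0.10. Tfcp2l1, a factor of the naive network, lay at 153, 139.8 and 129 CPM in Ctrl and 225, 209 and 187 CPM in dPOLE4 (log2 fold change 0.56, adjusted p = 7.28e-04). Klf4, another of its factors, lay at 52.2, 49.6 and 49.3 CPM in Ctrl and 68.5, 69.7 and 62.6 CPM in dPOLE4 (log2 fold change 0.41, adjusted p = 0.00208). Nanog had a log2 fold change of 0.37, adjusted p = 0.0267, and Esrrb one of 0.36, adjusted p = 0.0116. Lif, the cytokine that sustains self-renewal, is outside the lists and was singled out after its values were seen: it lay at 8.43, 10.3 and 8.49 CPM in Ctrl and 13.3, 16.8 and 14.4 CPM in dPOLE4 (log2 fold change 0.69 ± 0.12, adjusted p = 0.00431), and its call was lost without Ctrl 1, 2 or 3 (adjusted p up to 0.0325).

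**Figure D2:**
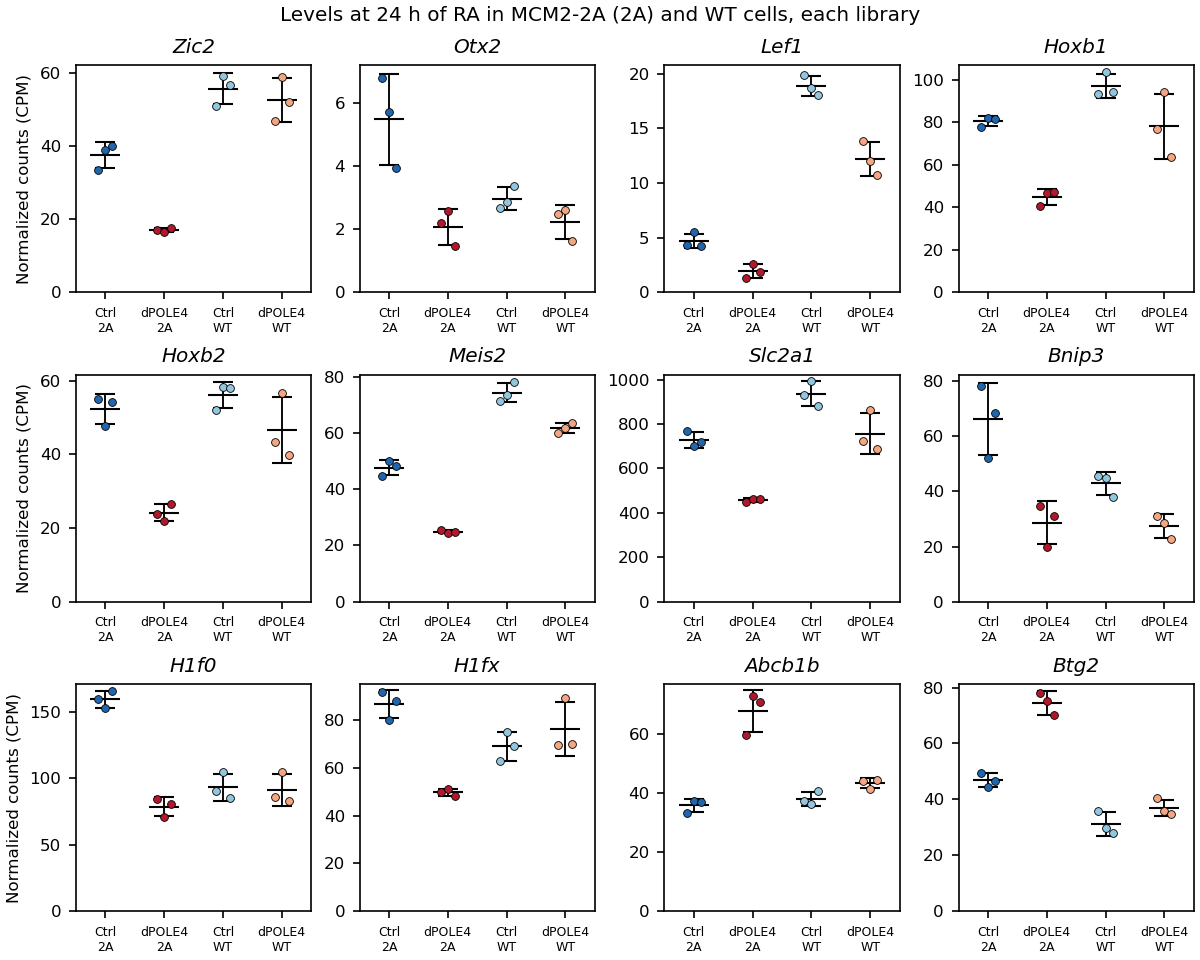
Normalized counts (CPM, linear axes from 0) of 12 genes in each of the 3 libraries of Ctrl and dPOLE4 at T24, in MCM2-2A (2A) and WT cells; points are libraries and bars the mean ± SD. In MCM2-2A the dPOLE4 libraries lie below all Ctrl libraries for the first 10 genes and above them for Abcb1b and Btg2, and in WT none of the 12 genes was DE.

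Among the patterning genes that RA induces, the Hox genes DE with all 6 libraries lay in the Hoxb cluster. Hox genes encode homeobox factors that set position along the body axis, and RA opens the clusters from the 3′ side. Of 32 tested Hox genes 8 were down-regulated and 0 up-regulated, all 8 of them Hoxb genes. The 10 tested Hoxb genes had a median log2 fold change of -0.81, the 10 Hoxa genes one of -0.22, the 7 Hoxc genes -0.14 and the 5 Hoxd genes 0.10. In the Hoxa, Hoxc and Hoxd clusters 0 genes were DE in edgeR and 0 in DESeq2, with 5, 3 and 0 at an unadjusted p below 0.05. All 10 Hoxa genes, 5 of the 7 Hoxc genes and 1 of the 5 Hoxd genes had a lower mean in dPOLE4. Hoxc5 (-0.84) and Hoxc4 (-0.68) were as low as some called Hoxb genes, while Hoxc13 was at 0.73, and none of the 3 was DE. Whether the clusters differ from each other was not tested. In WT cells at T24 the Hox list had a median of -0.21 over 29 tested genes, with 0 DE. Hoxb2 (ENSMUSG00000075588, chromosome 11 from 96350525 to 96354012) lay at 54.9, 47.6 and 54.1 CPM in Ctrl and 23.8, 21.9 and 26.5 CPM in dPOLE4 (log2 fold change -1.10 ± 0.09, adjusted p = 1.59e-05), the largest change of the cluster. Hoxb1 (ENSMUSG00000018973, chromosome 11 from 96365752 to 96368256), the most 3′ gene and a direct RA target, lay at 77.8, 82.2 and 81.5 CPM in Ctrl and 40.4, 46.9 and 47.2 CPM in dPOLE4 (log2 fold change -0.84 ± 0.07, adjusted p = 2.71e-05). The fitted level in dPOLE4 was 0.467 times that of Ctrl for Hoxb2 and 0.558 times for Hoxb1, and the groups of neither gene overlapped. Hoxb5 had a log2 fold change of -0.99, Hoxb8 of -0.98, Hoxb6 of -0.94, Hoxb4 of -0.78, Hoxb9 of -0.78 and Hoxb3 of -0.63. Hoxb7 was not DE (log2 fold change -0.69, adjusted p = 0.0228), and Hoxb13, at the 5′ end, was the 1 member with a higher mean in dPOLE4 (log2 fold change 0.25, adjusted p = 0.541). The Hoxb genes lie on chromosome 11, whose genes above 10 CPM had a median log2 fold change of -0.0132, within the range of the 20 chromosomes tested (-0.0785 to 0.0053). With 1 library left out the list held 7 or 8 DE members. The call lost was that of Hoxb3 without Ctrl 2 or 3 or dPOLE4 1 or 3 (adjusted p up to 0.0604). Hoxa5, of another cluster, was DE without dPOLE4 3 (log2 fold change -0.64, adjusted p = 0.00289) and not with all libraries (-0.48, adjusted p = 0.0311).

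TALE homeobox proteins bind DNA together with HOX proteins, and the 16 tested genes of the list of TALE and other RA-induced regulators had a median of -0.20. Meis2 (ENSMUSG00000027210, chromosome 2 from 115863064 to 116065839), a TALE gene, lay at 44.7, 49.9 and 48.4 CPM in Ctrl and 25.6, 24.5 and 24.6 CPM in dPOLE4 (log2 fold change -0.93 ± 0.07, adjusted p = 1.55e-05). Its 3 dPOLE4 libraries lay close together and below every Ctrl library. Of the 6 genes that the study followed as early RA response genes, Lefty1 and Sox1 were down-regulated. The study picked these 6, and whether it did so on these samples is not given, so they are not taken as independent evidence of a direction. Lefty1 (ENSMUSG00000038793, chromosome 1 from 180935022 to 180938400), an inhibitor of Nodal signalling, was abundant, at 303, 350.4 and 308 CPM in Ctrl and 178, 203 and 179.9 CPM in dPOLE4 (log2 fold change -0.78 ± 0.07, adjusted p = 3.41e-05). Sox1, a factor of early neural cells, lay at 10.5, 11 and 10.5 CPM in Ctrl and 5.95, 7.99 and 6.04 CPM in dPOLE4 (log2 fold change -0.70 ± 0.13, adjusted p = 0.00603), and this call was lost without any of Ctrl 1, 2 or 3 or dPOLE4 1 or 3 (adjusted p up to 0.0476). Its relative Sox3 was not DE (log2 fold change -0.34, adjusted p = 0.137). Among 22 tested neural commitment genes 2 were down-regulated, Sox1 and Nnat, the median was -0.18, and the genes of that list summed to 229 to 248 CPM in Ctrl and 204 to 234 CPM in dPOLE4. Before RA the sum was higher, at 378 to 439 CPM in Ctrl MCM2-2A at T0.

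Genes that sense and degrade RA mostly had lower means, without a call. Of 23 tested genes for RA receptors, metabolism and transport 0 were DE in edgeR and 0 in DESeq2, and 12 had an unadjusted p below 0.05. In dPOLE4 17 had a lower mean and 6 a higher one, and the median was -0.18. The largest change of the list was a higher one, that of Aldh1a3 (log2 fold change 1.11, not DE). Cyp26a1, the enzyme that degrades RA, was measured at 175, 181 and 177 CPM in Ctrl and 142, 138 and 147 CPM in dPOLE4 (log2 fold change -0.32 ± 0.06, adjusted p = 0.00584). Rarg, an RA receptor, had a log2 fold change of -0.32, adjusted p = 0.00863, and Crabp2, which carries RA in the cytoplasm, one of -0.42, adjusted p = 0.034. The adjusted p of the first 2 was below 0.01, and their folds stayed under the limit of 1.5.

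To describe the RA programme beyond single genes, features that RA raised or lowered by at least 2-fold were taken from Ctrl cells with WT MCM2 (T24 against T0, 6 libraries that the POLE4 contrast does not contain). RA raised 8.32% and lowered 4.33% of the features tested there. Of the 93 features down-regulated in dPOLE4 MCM2-2A, 45 belonged to those raised by RA (48.4%) and 4 to those lowered (4.3%). Of the 93 up-regulated features that were tested there, 17 were raised by RA (18.3%) and 8 lowered (8.6%). Read the other way, 1474 of the features raised by RA were tested in the contrast, and 45 were down-regulated, 17 up-regulated and 1412 not DE, with a median log2 fold change of -0.06. Among the 596 tested features lowered by RA, 8 were up- and 4 down-regulated, and the median was 0.09. The decrease thus took in part of the RA-raised features, such as Hoxb1, Hoxb5, Meis2 and Lefty1, while most of them were not DE. Cntfr, which encodes the receptor subunit for ciliary neurotrophic factor and was singled out after its values were seen, is an example of a well-measured member. RA raised it in WT cells (log2 fold change 2.22). In MCM2-2A it lay at 69.9, 74.2 and 72.7 CPM in Ctrl and 37.1, 39.7 and 38.3 CPM in dPOLE4 (log2 fold change -0.91 ± 0.07, adjusted p = 7.57e-06). Foxp1, a forkhead factor (-0.67, adjusted p = 1.66e-04), and Chd7, a chromatin remodeller (-0.66, adjusted p = 3.99e-05), were chosen in the same way.

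**Figure D3:**
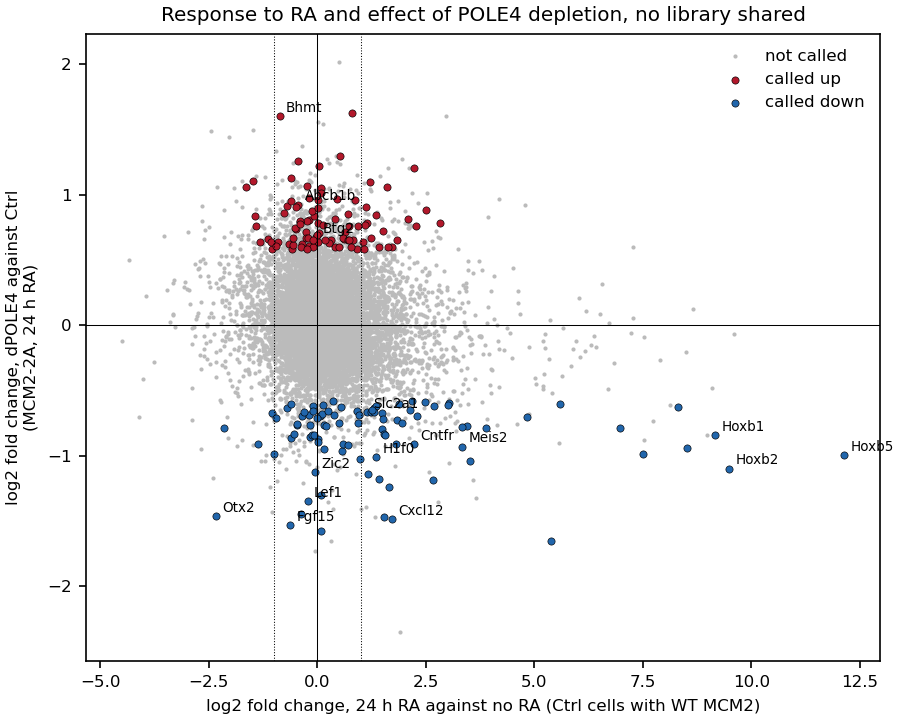
Each point is a feature, with its log2 fold change between 24 h of RA and no RA in Ctrl cells with WT MCM2 on the horizontal axis and that between dPOLE4 and Ctrl in MCM2-2A cells at T24 on the vertical axis; the 2 axes share no library, and dotted lines mark a 2-fold response to RA. Of the 93 down-regulated features (blue) 45 lie among those raised at least 2-fold by RA, with the Hoxb genes at the far right.

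A set of 4 genes of glucose uptake, glycolysis and the hypoxia response was down-regulated. Many genes of this kind are targets of the hypoxia-inducible factors, whose binding core in promoters was searched here in the form ACGTG only. Of 36 tested members 4 were down-regulated (Egln3, Bnip3, Tpi1 and Slc2a1), 0 were up-regulated, 31 had a lower mean in dPOLE4, and the median log2 fold change was -0.31. The stretch in which that core was searched, the 250 bases before the RefSeq start of each of the 4 genes, is printed here. These are RefSeq sequences of GRCm38.p6, read 5′ to 3′ on the strand of the gene, with every ACGTG or its reverse complement CACGT in capitals.

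Bnip3 chr7:138909507-138909756 (-): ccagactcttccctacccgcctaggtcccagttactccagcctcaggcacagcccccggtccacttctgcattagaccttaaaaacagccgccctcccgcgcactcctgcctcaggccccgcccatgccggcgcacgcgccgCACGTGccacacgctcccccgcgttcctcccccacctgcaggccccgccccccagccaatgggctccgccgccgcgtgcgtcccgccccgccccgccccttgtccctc

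Egln3 chr12:54203875-54204124 (-): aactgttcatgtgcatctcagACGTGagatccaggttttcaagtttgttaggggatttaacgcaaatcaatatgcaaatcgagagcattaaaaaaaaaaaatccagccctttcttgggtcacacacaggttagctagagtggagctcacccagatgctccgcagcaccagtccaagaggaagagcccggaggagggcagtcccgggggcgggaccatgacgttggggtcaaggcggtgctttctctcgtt

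Slc2a1 chr4:119108495-119108744 (+): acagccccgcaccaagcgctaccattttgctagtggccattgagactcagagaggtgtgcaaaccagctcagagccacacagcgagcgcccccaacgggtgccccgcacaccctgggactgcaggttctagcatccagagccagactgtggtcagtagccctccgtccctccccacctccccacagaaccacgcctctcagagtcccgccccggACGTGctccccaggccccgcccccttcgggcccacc

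Tpi1 chr6:124814159-124814408 (-): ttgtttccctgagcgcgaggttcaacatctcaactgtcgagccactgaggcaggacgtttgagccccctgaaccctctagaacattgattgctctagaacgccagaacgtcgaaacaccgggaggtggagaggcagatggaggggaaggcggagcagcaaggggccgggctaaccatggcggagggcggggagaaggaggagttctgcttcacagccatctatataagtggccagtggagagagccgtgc

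The Bnip3 stretch held the core on both strands in 1 overlapping palindrome, those of Egln3 and Slc2a1 held it once, and that of Tpi1 did not hold these letters. Other forms of the core were not searched, and the stretches of Bnip3, Slc2a1 and Tpi1 reach into the gene spans given below. Across the tested glycolysis and hypoxia genes with a promoter in the table, 19 of 31 held the core (61.3%), against 24.3% of 11869 tested genes and 18.5% of 27025 genes in all. Of the down-regulated genes with a promoter 16 of 55 held it (29.1%), and of the up-regulated ones 13 of 74 (17.6%), beside 24.3% of the tested genes. The share in the glycolysis and hypoxia list describes how its members were chosen and not a change in this contrast. Whether hypoxia-inducible factors had a part in the changes was not tested. Slc2a1 (ENSMUSG00000028645, chromosome 4 from 119108711 to 119137983), the glucose transporter GLUT1, was the most abundant of the 4, at 770.1, 699 and 719 CPM in Ctrl and 447, 464 and 461 CPM in dPOLE4 (log2 fold change -0.67 ± 0.06, adjusted p = 3.41e-05). Tpi1 (ENSMUSG00000023456, chromosome 6 from 124810586 to 124814296), the glycolytic triosephosphate isomerase, lay at 368, 326 and 328 CPM in Ctrl and 217, 195 and 220.3 CPM in dPOLE4 (log2 fold change -0.69 ± 0.07, adjusted p = 8.14e-05). In both genes the dPOLE4 libraries lay below all Ctrl libraries by more than the spread within either group. Bnip3 (ENSMUSG00000078566, chromosome 7 from 138890836 to 138909519), which acts in the removal of mitochondria, lay at 78.1, 52.1 and 68.4 CPM in Ctrl and 34.8, 19.9 and 31.2 CPM in dPOLE4 (log2 fold change -1.18 ± 0.17, adjusted p = 8.91e-04). Egln3 (ENSMUSG00000035105, chromosome 12 from 54178981 to 54203860), a hydroxylase that marks hypoxia-inducible factors for degradation, lay at 17.2, 8.96 and 11 CPM in Ctrl and 6.68, 4.32 and 4.41 CPM in dPOLE4 (log2 fold change -1.24 ± 0.22, adjusted p = 0.00484). The spread was wider for these 2, with dPOLE4 replicate 2 lowest in Bnip3 and Egln3 alike. The call of Egln3 was lost without Ctrl 1 or dPOLE4 2 or 3 (adjusted p up to 0.0249), and robust estimation in edgeR took it from both Bnip3 (adjusted p = 0.0772) and Egln3. Among members that missed a threshold, Pfkl had a log2 fold change of -0.51, adjusted p = 0.00129, Pdk1 of -0.52, adjusted p = 0.00135 and Ldha, the lactate-forming dehydrogenase, of -0.54, adjusted p = 0.00161. Slc16a3, a lactate exporter outside the list that was chosen after its values were seen, lay at 122, 101 and 104 CPM in Ctrl and 59, 44.9 and 55.4 CPM in dPOLE4 (log2 fold change -1.02 ± 0.10, adjusted p = 4.37e-05).

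Genes of cholesterol synthesis had lower means without passing the thresholds. Of 24 tested members 22 were lower in dPOLE4, with a median of -0.26, and 0 were DE in edgeR, 1 was in DESeq2, and 17 had an unadjusted p below 0.05. Sqle, which oxidizes squalene, had a log2 fold change of -0.27, adjusted p = 0.0121, and Idi1, an isomerase of the pathway, one of -0.34, adjusted p = 0.00778. For the 28 genes of the integrated stress and unfolded protein response the median was -0.16, with 0 DE in edgeR and in DESeq2 and 14 at an unadjusted p below 0.05. For the 13 heat shock genes it was -0.10, with 0 DE by either tool and 4 at an unadjusted p below 0.05.

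Linker histone genes, whose products bind the DNA between nucleosomes, had lower means throughout. All 8 tested members had a lower mean and 3 dPOLE4 libraries below all Ctrl libraries, 3 were down-regulated (H1f0, H1fx and Hist1h1t), and the median log2 fold change was -0.41. Of all 18441 tested features 2579 had 3 dPOLE4 libraries below all Ctrl libraries, and 0.504% were down-regulated. H1f0 (ENSMUSG00000096210, chromosome 15 from 79028450 to 79030504), a linker histone made outside S phase, lay at 159, 153 and 166 CPM in Ctrl and 84.7, 70.6 and 80.5 CPM in dPOLE4 (log2 fold change -1.01 ± 0.07, adjusted p = 7.57e-06). H1fx (ENSMUSG00000044927, chromosome 6 from 87980421 to 87981637), another such variant, lay at 92.1, 80.2 and 88.3 CPM in Ctrl and 50.1, 51.3 and 48.2 CPM in dPOLE4 (log2 fold change -0.80 ± 0.07, adjusted p = 2.71e-05). In both genes the 3 dPOLE4 libraries were close together and far below Ctrl. Hist1h1t, best known from the testis, lay at 12.6, 11.2 and 13.6 CPM in Ctrl and 5.06, 3.93 and 7.27 CPM in dPOLE4 (log2 fold change -1.14 ± 0.18, adjusted p = 0.00172), and its call was lost without Ctrl 1 (adjusted p = 0.0116). The S-phase linker histones Hist1h1e (-0.41, adjusted p = 0.00123) and Hist1h1b (-0.32, adjusted p = 0.00379) had lower means and missed the fold limit.

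Genes of the replication-dependent core histones, which package newly made DNA, showed the same direction with smaller steps. Of 61 tested members 57 had a lower mean in dPOLE4, 35 had groups that did not overlap, 50 had an unadjusted p below 0.05, 5 were down-regulated, and the median was -0.28. Among all 18441 tested features 9120 had a lower mean, and 2579 had 3 dPOLE4 libraries below all Ctrl libraries. An unadjusted p below 0.05 was found for 21.1% of all features, and 0.504% were down-regulated. The down-regulated members were Hist1h2ba, Hist3h2ba, Hist1h2aa, Hist1h2bp and Hist2h2aa1. Hist1h2ba, an H2B gene known from the testis, lay at 28.9, 31.6 and 30.4 CPM in Ctrl and 17.7, 14.6 and 18 CPM in dPOLE4 (log2 fold change -0.84 ± 0.10, adjusted p = 1.85e-04). Hist3h2ba, an H2B gene outside the major cluster, lay at 72.3, 71.6 and 74 CPM in Ctrl and 47.6, 42.8 and 44 CPM in dPOLE4 (log2 fold change -0.69 ± 0.07, adjusted p = 5.05e-05). Both were DE with any library left out. The remaining 3 had log2 fold changes of -0.67, adjusted p = 9.55e-04 for Hist1h2aa, -0.66, adjusted p = 0.00884 for Hist1h2bp and -0.84, adjusted p = 0.00953 for Hist2h2aa1. Hist1h2aa was not DE without Ctrl 2 or dPOLE4 2 (adjusted p up to 0.0117), nor Hist1h2bp without Ctrl 1, 2 or 3 or dPOLE4 2 or 3 (adjusted p up to 0.0479). Hist2h2aa1 was not DE without Ctrl 1, 2 or 3 or dPOLE4 1, 2 or 3 (adjusted p up to 0.0857). The list held 2 DE members without dPOLE4 replicate 2 and 3 without Ctrl 1, 2 or 3. Histone genes have near-identical copies that can share reads, so that the split between single members is uncertain. Among 9 replacement histone genes, which are used outside replication, 0 were DE in edgeR or DESeq2, 4 had an unadjusted p below 0.05, and the median was -0.11. The 11 genes of histone mRNA processing had a median of 0.02 (0 DE in edgeR or DESeq2, 2 at an unadjusted p below 0.05) and the 30 histone chaperone genes one of -0.04 (0 and 6 likewise).

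**Figure D4:**
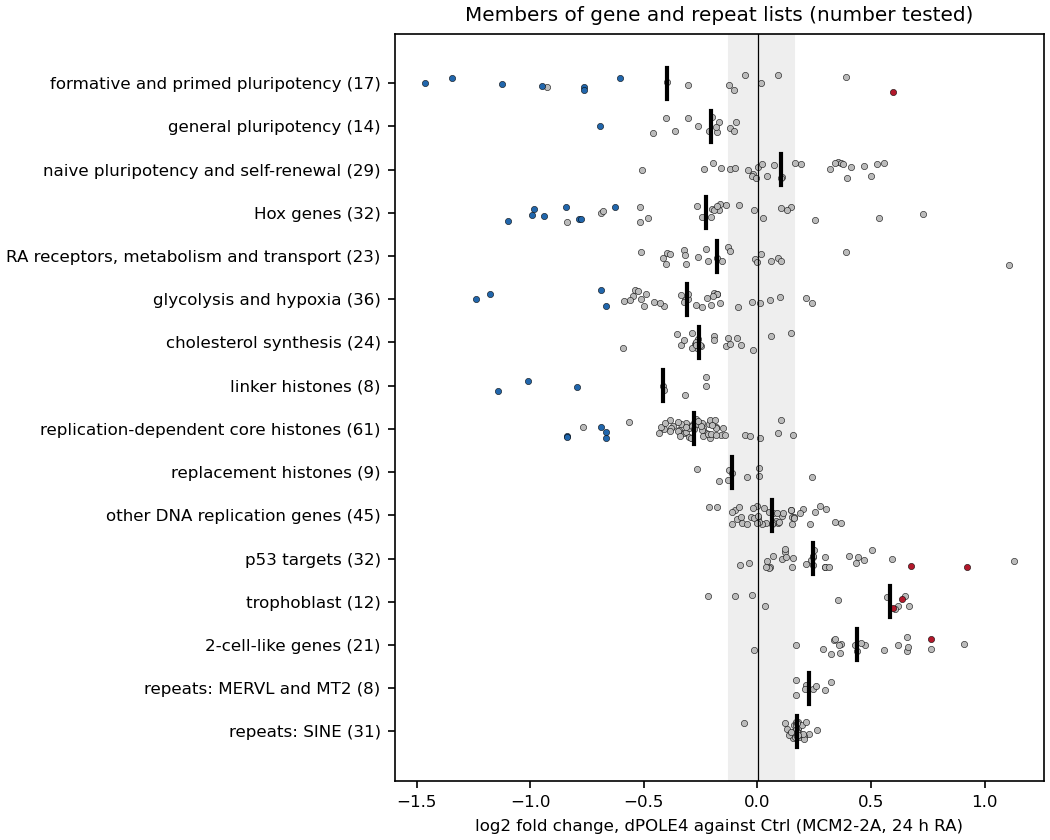
Log2 fold changes of dPOLE4 against Ctrl in MCM2-2A at T24 for the tested members of 16 lists, with the number tested in brackets; points are genes or repeat subfamilies, called up in red and down in blue, thick bars are list medians, and the grey band spans the middle 50% of all tested features. All linker histones lie left of 0, the median of the trophoblast list lies at 0.58, and the repeat lists lie slightly right of 0.

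Signalling genes changed singly. Fgf15 (ENSMUSG00000031073, chromosome 7 from 144896531 to 144900953), an FGF ligand, was the 1 down-regulated gene of 25 tested FGF and ERK feedback genes, at 3.8, 3.85 and 4.09 CPM in Ctrl and 1.07, 1.31 and 1.59 CPM in dPOLE4 (log2 fold change -1.53 ± 0.21, adjusted p = 6.36e-04). The ERK feedback inhibitors Spry4 (-0.49, adjusted p = 0.0031), Dusp6 (-0.47, adjusted p = 0.00319) and Spred1 (-0.46, adjusted p = 0.00309) stayed under the fold limit, and the list median was -0.12. Cxcl12 (ENSMUSG00000061353, chromosome 6 from 117168535 to 117181367), a chemokine, lay at 5.11, 5.63 and 4.41 CPM in Ctrl and 1.88, 1.38 and 2.04 CPM in dPOLE4 (log2 fold change -1.49 ± 0.19, adjusted p = 4.25e-04). Has2, which makes hyaluronan, lay at 6.24, 6.78 and 6.17 CPM in Ctrl and 2.61, 2.69 and 2.52 CPM in dPOLE4 (log2 fold change -1.30 ± 0.15, adjusted p = 1.85e-04). In these 3 genes the 3 dPOLE4 libraries were all lower than any Ctrl library, at levels of a few CPM. Sp8, a zinc finger factor counted with the Wnt targets, lay at 3.86, 3.93 and 2.72 CPM in Ctrl and 1.2, 1.64 and 1.11 CPM in dPOLE4 (log2 fold change -1.47 ± 0.23, adjusted p = 0.00165), and of the 19 genes of that list Sp8 and Lef1 were down-regulated and 0 up-regulated, with a median of 0.03. Of 22 Nodal and BMP genes Lefty1 was DE, with a list median of -0.15. The remaining down-regulated features of the 12 with the largest folds were Olig3, a bHLH factor of the dorsal neural tube (-1.65, adjusted p = 0.00988), the cytochrome P450 gene Cyp2b23 (-1.58, adjusted p = 0.00106), the protease inhibitor gene Serpina3m (-1.45, adjusted p = 0.00435) and 2810459M11Rik (-1.19, adjusted p = 0.00131). All 4 had below 6 CPM in Ctrl, with means of 2.33 ± 1.03, 5.48 ± 0.686, 2.23 ± 0.152 and 4.45 ± 0.451 CPM (SD, n = 3) in that order. Sp8 was not DE without Ctrl 1 or 2 (adjusted p up to 0.0205), nor Olig3 without Ctrl 2 or 3 or dPOLE4 1, 2 or 3 (adjusted p up to 0.105). Cyp2b23 was not DE without Ctrl 2 (adjusted p up to 0.0133), nor Serpina3m without Ctrl 1, 2 or 3 or dPOLE4 1 or 3 (adjusted p up to 0.0273). 2810459M11Rik was not DE without Ctrl 2 (adjusted p up to 0.0162). Car2, a carbonic anhydrase, was better measured, at 139, 152 and 152 CPM in Ctrl and 74.8, 71.2 and 80.1 CPM in dPOLE4 (log2 fold change -0.96 ± 0.07, adjusted p = 7.57e-06), and had the lowest adjusted p of all features together with H1f0 and Cntfr.

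Among the up-regulated genes were 2 of 32 tested p53 targets, Abcb1b and Btg2. The list had 30 members with a higher mean in dPOLE4, 18 with an unadjusted p below 0.05, and a median log2 fold change of 0.24. Abcb1b (ENSMUSG00000028970, chromosome 5 from 8798147 to 8866315), a drug efflux pump, lay at 33.3, 37.2 and 37 CPM in Ctrl and 59.8, 72.8 and 70.9 CPM in dPOLE4 (log2 fold change 0.92 ± 0.08, adjusted p = 3.41e-05). Btg2 (ENSMUSG00000020423, chromosome 1 from 134075170 to 134079120), an antiproliferative p53 target, lay at 49.6, 44.5 and 46.5 CPM in Ctrl and 78.2, 75.1 and 70 CPM in dPOLE4 (log2 fold change 0.67 ± 0.07, adjusted p = 9.05e-05). Both genes were higher in every dPOLE4 library than in any Ctrl library and DE with any library left out. Mdm2, the p53 ubiquitin ligase, had a log2 fold change of 0.43, adjusted p = 0.00124, Plk2 one of 0.40, adjusted p = 0.00199 and Perp one of 0.47, adjusted p = 0.00315, each under the fold limit. Of 21 apoptosis genes Bnip3 alone was DE, and the median was 0.04.

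A few trophoblast and epithelial genes were up-regulated. Of 12 tested trophoblast genes 2 were up-regulated (Tead4 and Esx1) and 0 down-regulated, 9 had a higher mean, and the median was 0.58. Tead4, a factor of trophectoderm, lay at 8.97, 11.4 and 11.6 CPM in Ctrl and 15.7, 17.2 and 16.7 CPM in dPOLE4 (log2 fold change 0.64 ± 0.11, adjusted p = 0.0046). Esx1, a placental homeobox gene, lay at 19.8, 18.8 and 19 CPM in Ctrl and 26.6, 31 and 29.4 CPM in dPOLE4 (log2 fold change 0.60 ± 0.09, adjusted p = 0.00103). Their dPOLE4 libraries lay above all Ctrl libraries, and 1 gene of the list was DE without Ctrl 1 or 2 or dPOLE4 2 or 3. Gata2, a trophoblast factor, had a log2 fold change of 0.62, adjusted p = 0.0107. The 3 members with a lower mean were Cdx2 (-0.22), Tfap2a (-0.10) and Tfap2c (-0.03), and Ascl2 had a log2 fold change of 0.03. The 17 genes of the list summed to 160 to 181 CPM in Ctrl and 197 to 240 CPM in dPOLE4, while 4 placental genes of the list (Tpbpa, Prl3d1, Prl2c2 and Psg17) were at 0 in every library of both groups. The part of such cells in these values was not tested. Of 20 keratin, cadherin and adhesion genes 2 were up-regulated, Krt18 and Sbsn, and 0 down-regulated, with a median of 0.18. Krt18, a keratin of simple epithelia, lay at 94.1, 105 and 115 CPM in Ctrl and 139, 168 and 167 CPM in dPOLE4 (log2 fold change 0.60 ± 0.09, adjusted p = 0.0011), while its partner Krt8 had a log2 fold change of 0.39, adjusted p = 0.00245. Tead4 was not DE without Ctrl 1 or 2 or dPOLE4 1 or 3 (adjusted p up to 0.0305), nor Esx1 without Ctrl 2 or dPOLE4 2 or 3 (adjusted p up to 0.015). Krt18 was not DE without Ctrl 1 or 2 or dPOLE4 2 or 3 (adjusted p up to 0.0129), nor Sbsn without Ctrl 1 or 2 (adjusted p up to 0.0325). In the remaining lineages, 1 of 17 mesoderm and primitive streak genes was up-regulated (Wnt3a, 1.06, adjusted p = 0.0059), and 1 of 21 endoderm genes was down-regulated (Cubn, an endocytic receptor, -0.91, adjusted p = 0.00121), with medians of 0.20 and -0.02. Wnt3a was not DE without Ctrl 1, 2 or 3 or dPOLE4 2 or 3 (adjusted p up to 0.0396), nor Cubn without Ctrl 1 (adjusted p up to 0.0106). Summed levels were 162 to 169 against 187 to 191 CPM for mesoderm genes and 834 to 853 against 863 to 1025 CPM for endoderm genes, in Ctrl and dPOLE4. Of 8 fibroblast genes 0 were DE in edgeR or DESeq2 and 3 had an unadjusted p below 0.05, with sums of 555 to 603 and 571 to 605 CPM.

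The 12 up-regulated features with the largest folds were Slc4a9, Bhmt, D630033O11Rik, Gm38642, Dlk2, Mst1, C4b, Rdh1, Sbsn, Dmgdh, 1810020O05Rik and 1700007K13Rik. Bhmt (ENSMUSG00000074768, chromosome 13 from 93616675 to 93637961), which uses betaine to remethylate homocysteine, lay at 1.19, 1.51 and 2 CPM in Ctrl and 4.8, 5.24 and 4 CPM in dPOLE4 (log2 fold change 1.60 ± 0.21, adjusted p = 5.54e-04). Dmgdh (ENSMUSG00000042102, chromosome 13 from 93674433 to 93752833), which breaks down the dimethylglycine that this reaction yields, lay at 1.37, 1.98 and 1.36 CPM in Ctrl and 3.34, 3.54 and 3.56 CPM in dPOLE4 (log2 fold change 1.10 ± 0.21, adjusted p = 0.00584). Slc4a9, an anion exchanger of the bicarbonate transporter family, lay at 1.48, 1.51 and 1.52 CPM in Ctrl and 4.33, 5.11 and 4.56 CPM in dPOLE4 (log2 fold change 1.63 ± 0.18, adjusted p = 1.66e-04). These genes were rare in Ctrl and higher in each dPOLE4 library. 1700007K13Rik was the most abundant of the 12, at 8.97, 9.08 and 8.65 CPM in Ctrl and 17.1, 19.8 and 18.9 CPM in dPOLE4 (log2 fold change 1.06 ± 0.10, adjusted p = 4.96e-05). Log2 fold changes were 1.30 for Dlk2, a relative of the Notch ligands, 1.26 for Mst1, a secreted ligand of the RON receptor, 1.22 for the complement gene C4b, 1.21 for the retinol dehydrogenase gene Rdh1 and 1.13 for Sbsn. The 3 long non-coding RNAs had log2 fold changes of 1.5 (D630033O11Rik), 1.36 (Gm38642) and 1.09 (1810020O05Rik). Slc4a9, Bhmt and 1700007K13Rik were DE with any library left out. Dmgdh was not DE without Ctrl 1, 2 or 3 or dPOLE4 1 or 3 (adjusted p up to 0.0367), nor Dlk2 without Ctrl 1, 2 or 3 or dPOLE4 2 (adjusted p up to 0.0577). Mst1 was not DE without Ctrl 1 or 2 (adjusted p up to 0.0259), nor C4b without Ctrl 1, 2 or 3 or dPOLE4 2 or 3 (adjusted p up to 0.0502). Rdh1 was not DE without Ctrl 1 or 2 or dPOLE4 1 (adjusted p up to 0.0512), nor Sbsn without Ctrl 1 or 2 (adjusted p up to 0.0325). D630033O11Rik was not DE without Ctrl 1, 2 or 3 or dPOLE4 1 or 3 (adjusted p up to 0.0401), nor Gm38642 without Ctrl 1, 2 or 3 or dPOLE4 1, 2 or 3 (adjusted p up to 0.0756). 1810020O05Rik was not DE without Ctrl 1 or 2 or dPOLE4 1 or 3 (adjusted p up to 0.0472).

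Imprinted genes showed no common direction. Of 35 tested members H19 was up-regulated and Nnat down-regulated, and the median was -0.10. H19, a long non-coding RNA expressed from the maternal allele, was abundant, at 396, 499 and 475 CPM in Ctrl and 597, 829 and 642 CPM in dPOLE4 (log2 fold change 0.60 ± 0.11, adjusted p = 0.00466), and its neighbour Igf2 had a log2 fold change of 0.57, adjusted p = 0.00584. H19 was not DE in DESeq2, and Nnat, a gene of early neural tissue, lay at 18.6, 20.5 and 18.4 CPM in Ctrl and 10.2, 14 and 9.83 CPM in dPOLE4 (log2 fold change -0.78 ± 0.12, adjusted p = 0.002). H19 was not DE without Ctrl 1, 2 or 3 or dPOLE4 2 (adjusted p up to 0.0386), nor Nnat without Ctrl 1 or 2 or dPOLE4 1 (adjusted p up to 0.0244).

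Genes of the 2-cell-like state, a rare state of mESC cultures that resembles the cleavage embryo, had higher means. Of 21 tested members 20 were higher in dPOLE4, 10 had an unadjusted p below 0.05, 1 was up-regulated (Usp17la), DESeq2 called 3, and the median log2 fold change was 0.44. Usp17la, a deubiquitinase gene with close copies, lay at 6.71, 5.51 and 7.37 CPM in Ctrl and 10.6, 8.97 and 12.6 CPM in dPOLE4 (log2 fold change 0.76 ± 0.15, adjusted p = 0.00894). Zscan4a, which also has near-identical neighbours, lay at 11.8, 9 and 11.2 CPM in Ctrl and 15.6, 13.5 and 20.2 CPM in dPOLE4 (log2 fold change 0.66, adjusted p = 0.0178). The call of Usp17la was lost without any of Ctrl 1, 2 or 3 or dPOLE4 1 or 3 (adjusted p up to 0.0769), the list held 3 DE genes without dPOLE4 replicate 2, and the list median lay between 0.25 without Ctrl replicate 2 and 0.60 without dPOLE4 replicate 2. All 8 tested Pramel genes had a higher mean, with a median of 0.44, and 0 were DE in edgeR or DESeq2 and 4 had an unadjusted p below 0.05. Of 25 germline genes that DNA methylation silences 0 were DE in edgeR or DESeq2, 12 had an unadjusted p below 0.05, and the median was 0.18, with Tex19.1 at 62.5, 66 and 64.9 CPM in Ctrl and 84.3, 108 and 91.2 CPM in dPOLE4 (log2 fold change 0.55, adjusted p = 0.0012).

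Repeat subfamilies were mostly a little higher in dPOLE4. Of 868 tested subfamilies 665 had a higher mean, the median log2 fold change was 0.16, 150 had an unadjusted p below 0.05, and 2 were DE, both down-regulated. The share of counts on repeats was 7.21% ± 0.348 in Ctrl and 7.74% ± 0.262 in dPOLE4 (SD, n = 3 each). MMERGLN-int, the internal part of an endogenous retrovirus, went the other way, at 403, 448 and 457 CPM in Ctrl and 231, 259 and 276 CPM in dPOLE4 (log2 fold change -0.77 ± 0.08, adjusted p = 5.37e-05). Its long terminal repeat MMERGLN_LTR lay at 36.1, 36.6 and 43 CPM in Ctrl and 23, 22.1 and 26.3 CPM in dPOLE4 (log2 fold change -0.68 ± 0.10, adjusted p = 8.78e-04). Both were lower in each dPOLE4 library than in any Ctrl library. All 8 subfamilies of the MERVL retrovirus and its MT2 promoters had a higher mean, with a median of 0.23 and MERVL-int at 0.32, adjusted p = 0.176. All 28 ORR1 subfamilies (median 0.16) and 30 of 31 SINE subfamilies (median 0.17) were higher as well. In the MERVL, ORR1 and SINE lists 0 subfamilies were DE in edgeR or DESeq2, while 5, 9 and 24 had an unadjusted p below 0.05, and the direction of the 3 medians was the same with each scaling and with each library left out. Of 23 IAP subfamilies 10 were higher (median -0.05), and of 10 ETn and MusD subfamilies 1 (median -0.22). Young LINE-1 subfamilies had a median of -0.01 over 6 and old ones of 0.15 over 95. In IAP and in young and old LINE-1 subfamilies 0 were DE in edgeR or DESeq2, with 2, 2 and 12 at an unadjusted p below 0.05.

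Lists of replication and chromatin maintenance genes had medians near 0. Among 10 genes for DNA polymerase epsilon subunits and MCM2-7 the median was -0.04, and Mcm2 lay at 228, 236 and 214 CPM in Ctrl and 216, 227 and 206 CPM in dPOLE4 (log2 fold change -0.06, adjusted p = 0.63). Among 45 other replication genes it was 0.07, with Rrm2, a subunit of ribonucleotide reductase, at 0.28, adjusted p = 0.0132. Among 33 G2/M genes it was -0.07, with Plk1 at -0.30, adjusted p = 0.00689, and among 23 cell cycle genes that the study followed it was -0.02. In these 4 lists 0 genes were DE in edgeR or DESeq2, and 1, 15, 3 and 6 had an unadjusted p below 0.05. The 34 genes of polycomb complexes had a median of -0.03, with Phc1 at -0.48, adjusted p = 3.78e-04, the 21 genes of H3K9 methylation and repeat silencing one of -0.05, with Kdm4c at -0.50, adjusted p = 3.40e-04, and the 12 genes of DNA methylation one of -0.10. In these 3 lists 0 genes were DE in edgeR or DESeq2 either, with 6, 8 and 5 at an unadjusted p below 0.05. The share of all tested features at that p was 21.1%.

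In WT cells, 0 of 19093 features were DE at T24 in edgeR, 1451 had an unadjusted p below 0.05 (7.60%), and DESeq2 called 17. Some list medians in WT had the same sign as in MCM2-2A. They were -0.21 for Hox genes, -0.20 for glycolysis and hypoxia, -0.16 for cholesterol synthesis, -0.16 for neural commitment and 0.33 for trophoblast genes. They were also -0.20 for FGF and ERK feedback and -0.15 for formative and primed pluripotency genes. Above 0 were Pramel genes (0.22), germline genes silenced by DNA methylation (0.18) and p53 targets (0.14). Others lay near 0, at -0.05 for linker histones, -0.05 for core histones and -0.04 for 2-cell-like genes. Whether any list differed between the lines was not tested. Of the 95 features up-regulated in MCM2-2A 89 had a higher mean in dPOLE4 WT cells too, with a median log2 fold change of 0.27, and of the 93 down-regulated ones 87 had a lower mean, with a median of -0.22. Most of these features had the same sign in WT, with medians nearer to 0. These features were picked by their values in MCM2-2A, so medians nearer to 0 in other libraries follow in part from that choice. The share of all tested features with the same sign in both lines is not given here. The test of the difference itself called 7 of 19961 features (0.0351%), all of them more strongly lower in MCM2-2A: Zic2, Meis2, H1f0, H1fx, Cxcl12, Car2 and MMERGLN-int. For Zic2 the log2 fold change was -1.13 in MCM2-2A and -0.08 in WT (difference -1.06 ± 0.13, adjusted p = 0.00724). For H1f0 it was -1.01 and -0.03 (difference -0.996 ± 0.14, adjusted p = 0.00724), and for H1fx -0.80 and 0.15 (difference -0.96 ± 0.13, adjusted p = 0.00724). For Meis2 it was -0.93 and -0.27 (difference -0.67 ± 0.09, adjusted p = 0.00724), and for Cxcl12 -1.49 and -0.06 (difference -1.44 ± 0.20, adjusted p = 0.00724). In WT the estimates of Zic2, H1f0 and Cxcl12 lay near 0 and that of H1fx above 0, whereas that of Meis2 was below 0 in both lines and farther from it in MCM2-2A. In WT cells H1f0 lay at 90.2, 104 and 85 CPM in Ctrl and 85.7, 105 and 82.9 CPM in dPOLE4, so that all 6 WT libraries lay below the Ctrl libraries of MCM2-2A. Zic2 lay at 50.9, 59.2 and 56.8 CPM in Ctrl and 47, 59 and 51.9 CPM in dPOLE4 of WT, above every library of MCM2-2A. The levels that the contrast starts from thus differed between the lines, higher in MCM2-2A Ctrl for H1f0 and lower for Zic2, a difference that was not tested. Slc2a1 (-0.67 and -0.30, difference -0.38 ± 0.11, adjusted p = 0.264), Bnip3 (-1.18 and -0.64, difference -0.55 ± 0.24, adjusted p = 0.515) and Abcb1b (0.92 and 0.19, difference 0.72 ± 0.11, adjusted p = 0.013) did not pass the test of the difference. Of the same difference, DESeq2 called 29 features, all 7 among them, and edgeR called 0 with each of 7 of the 12 libraries left out in turn, namely Ctrl T24 1 and 3, Ctrl MCM2-2A T24 2 and 3 and dPOLE4 MCM2-2A T24 1, 2 and 3, 2 without Ctrl MCM2-2A T24 1, and 3 without Ctrl T24 2 or dPOLE4 T24 3.

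Across the time course in MCM2-2A cells, 13 features were DE at T0 (0.0715%, with 0.0220% up and 0.0495% down), 73 at T12 (0.404%), 188 at T24 and 416 at T60 (2.25%), each time point being tested on its own libraries. Of the features DE at T0, 9 were lower in dPOLE4 before RA and all 9 were lower at T24, where 7 were called (Otx2, Lef1, Zic2, Tenm4, Hist3h2ba, Hist1h2aa and MMERGLN-int), while Hist1h2bm (-0.57, adjusted p = 0.0059) and Hist3h2bb-ps (-0.66, adjusted p = 0.0126) were not. Of the 4 higher at T0, Btg2, Sbsn and Ptprv were called at T24 and Itgb4 was not (0.54, adjusted p = 0.00582). Of the 33 features down-regulated at T12 that were tested at T24, 26 were down-regulated there and all 33 were lower, and of the 39 up-regulated ones 20 were up-regulated and all 39 were higher. Of the features down-regulated at T60, 27 of 203 were down-regulated at T24, and of those up-regulated at T60 38 of 196 were up-regulated. Over all tested features 0.504% were down- and 0.515% up-regulated at T24. Seen from T24, all 93 down-regulated features had a lower mean in dPOLE4 at T12, and 93 of the 94 tested up-regulated ones had a higher mean.

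For single genes the values at each time are given side by side, as a description. H1f0 was lower by similar amounts throughout, with log2 fold changes of -0.86 at T0, -0.94 at T12, -1.01 at T24 and -0.93 at T60. Hist1h2ba was lowest early, at -1.40, -1.41, -0.84 and -0.21, and the medians of the core histone list were -0.53, -0.38, -0.28 and -0.36. Abcb1b was higher at every time, at 0.66, 0.84, 0.92 and 0.82. Meis2 had a log2 fold change above 0 before RA (0.19) and was at -0.68, -0.93 and -0.97 afterwards. Slc2a1 had its lowest value at T24, with 0.03, -0.28, -0.67 and -0.02. Hoxb2 was too low to be tested at T0, and had log2 fold changes of -1.22, -1.10 and -0.65 in RA. Lef1 was at -1.43, -1.78, -1.35 and -0.17. Pou3f1 changed side, from -0.24 at T0 to -0.40 at T12, -0.95 at T24 and 0.66 at T60, where its adjusted p was 0.0215.

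Tests of the difference between time points called 0 of 19393 features between T24 and T0 (edgeR, with 1219 or 6.29% at an unadjusted p below 0.05 and 5 in DESeq2) and 0 of 19112 between T24 and T12 (1077 or 5.64%, and 0, likewise). Between T24 and T60 they called 6 of 19602 (0.0306%), 1 of them higher (0.00510%) and 5 lower (0.0255%) at T24. The effect on Pou3f1 was lower at T24 by a log2 difference of -1.61 (± 0.20, adjusted p = 0.00177), that on Cdkn1c by -1.46, on Phlda2 by -1.28, on Tdgf1 by -1.18 and on Mylpf by -0.85, and that on Peg3 was higher by 0.79. Cdkn1c encodes a cyclin-dependent kinase inhibitor, Tdgf1 a Nodal co-receptor, and Cdkn1c, Phlda2 and Peg3 are imprinted. Of these 6 only Pou3f1 was DE at T24 itself. DESeq2 called 70 features in this test, all 6 among them. In edgeR the count lay between 0 without Ctrl T24 2 or Ctrl T60 3 and 26 without dPOLE4 T60 3, and was 3 without Ctrl T24 1 or 3, Ctrl T60 2 or dPOLE4 T24 3, all of MCM2-2A.

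**Figure D5:**
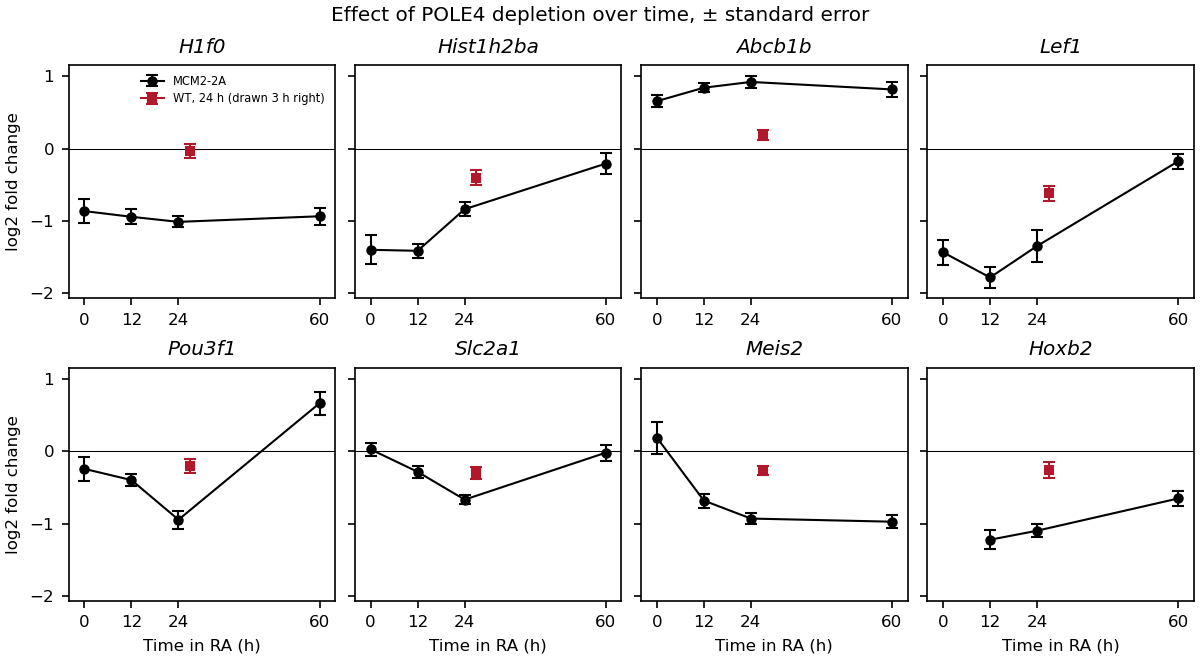
Log2 fold change of dPOLE4 against Ctrl in MCM2-2A cells at 0, 12, 24 and 60 h of RA for 8 genes (black, ± standard error), and in WT cells at 24 h (red squares, drawn 3 h to the right). H1f0 stays between -0.86 and -1.01, Meis2 and Slc2a1 are near or above 0 before RA, and Pou3f1 lies below 0 at T24 and above it at T60.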

How the data were processed

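Libraries were made from total RNA after depletion of ribosomal RNA with a kit that keeps the strand. Per the labels and the study's methods, the authors trimmed reads with cutadapt 4.2, aligned them with STAR to mm10, keeping reads that map to several places, and counted them with TEcount per gene (GENCODE M25) and repeat subfamily. The strand setting of the counting is not given in the sources used here. The deposited values are raw counts for 55487 genes and 1146 repeat subfamilies. Reads from overlapping or near-identical genes can therefore be counted for either.

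Groups and replicate numbers were taken from the sample titles. Gene IDs were named and placed with GENCODE M21 (mm10), in which 55141 were found. Counts were tested in R 4.3.3 with edgeR 4.0.16 (glmQLFit and glmQLFTest) on the 2 groups of each contrast, or the 4 of each difference, after filterByExpr (minimum count 10, minimum total 15) and TMM scaling over genes and repeats. CPM used 1 TMM scale over the 48 libraries of the RA time course, and the prior count of log2 values was 2. Alternatives were DESeq2 1.42.0, other scalings, filters, thresholds and samples in the fit, the replicate number as a block, and each library left out in turn. The second deposited table, of 12 libraries from an experiment without RA, was not used.

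The genes, repeats and 54 lists described were chosen with earlier results of these data known. Named were Pole4 and Mcm2, per direction the 12 DE features of largest fold with groups apart, every DE member of a list, up to 4 members of a list with the lowest p, the genes the study follows in RA, the features DE in the difference between the lines and those DE at T0. Some genes that this rule takes in are not reported here. Other genes named were chosen after their values were seen. Library totals limit the precision for genes of a few CPM.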

Additional observations from a re-analysis of the deposited data

Results flagged for a closer look

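For 7 features the effect of POLE4 depletion at T24 differed between MCM2-2A and WT cells by the test of the difference itself (edgeR, 6 libraries a line). The difference in log2 fold change was -1.06 for Zic2, -0.67 for Meis2, -0.996 for H1f0, -0.96 for H1fx and -1.44 for Cxcl12 (adjusted p = 0.00724 each), and -0.62 for Car2 and -0.72 for MMERGLN-int (adjusted p = 0.00735 each). In MCM2-2A all 7 were down-regulated in dPOLE4, with 3 of 3 libraries below every Ctrl library, and their WT estimates lay between -0.35 (Car2) and 0.15 (H1fx).

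For 6 features the effect in MCM2-2A cells differed between T24 and T60 in the same kind of test. The T24 effect was the lower one for Pou3f1 by -1.61 (-0.95 at T24 and 0.66 at T60), Cdkn1c by -1.46 (-0.51 and 0.95) and Phlda2 by -1.28 (-0.10 and 1.17), with an adjusted p of 0.00177 each. It was lower for Tdgf1 by -1.18 (-0.21 and 0.96) and Mylpf by -0.85 (0.07 and 0.92), with an adjusted p of 0.00365 each, and higher for Peg3 by 0.79 (0.15 and -0.64, adjusted p = 0.00508). At T60 all but Pou3f1 were DE (adjusted p of Pou3f1 0.0215). Both sets of calls depend on single libraries, with between 0 and 7 calls in the first test and between 0 and 26 in the second when 1 library was left out.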

How the results depend on the processing

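The count of 188 DE features at T24 in MCM2-2A cells was 224 in DESeq2 (182 of the 188 among them), 185 with DESeq2 size factors, 184 with TMM from genes only, 186 with at least 10 counts in every library, 204 with the 4 groups of T24 in the fit, 224 with the 8 MCM2-2A groups, 202 with robust estimation and 178 without the features DE at T0. It was 396 with no filter on low counts, 390 at an adjusted p below 0.05, 426 with no fold change threshold, 0 with glmTreat against a 1.5-fold change, and between 87 and 170 with 1 library left out. All 188 kept their sign in DESeq2, with each scaling and filter, with the block and with each library left out. The count of 0 in WT was 17 in DESeq2, 35 with no filter and 0 to 2 with 1 library left out. The 7 features of the difference between the lines were 29, 55 and 0 to 7 in the same order. The differences between T24 and the other times, 0 for T0, 0 for T12 and 6 for T60, were 5, 0 and 70 in DESeq2, 31, 26 and 144 with no filter, and 0 to 1, 0 to 0 and 0 to 26 with 1 library left out. Why these counts move was not tested.

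In the fits that take the replicate number as a block, the counts were 288 at T24 in MCM2-2A (186 of the 188 among them), 14 in WT, 28 for the difference between the lines, 2 for T24 against T0, 0 against T12 and 17 against T60. Nothing in the sources used here says that the numbers pair the samples. Deviations of same-numbered Ctrl and dPOLE4 libraries correlated at 0.031, 0.084 and 0.154 for replicates 1 to 3. Those of differently numbered libraries correlated between -0.107 (Ctrl 3 with dPOLE4 2) and 0.037 (Ctrl 1 with dPOLE4 2). Whether the numbers mark pairs was not tested.

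Of 146 named features (142 with an adjusted p in DESeq2), calls were lost for 7 with 4 groups in the fit, 5 with robust estimation, 3 with TMM from genes only, 1 with the stricter filter, 1 in DESeq2 and 0 with DESeq2 size factors, no filter or the block, and calls were gained for 3 in DESeq2, 6 with no filter, 5 with the block and 2 with robust estimation. Over the 6 fits that leave out 1 library, calls of these features were lost 141 times and gained 26 times. Of the 54 list medians, 1 moved with the stricter filter (Hox genes, -0.51) and 1 with the block (IAP, -0.11). Over the fits with 1 library left out, 33 values of the list medians moved by more than the spread between the dPOLE4 libraries and 291 did not. That of the 2-cell-like genes lay between 0.25 and 0.60 and that of the TALE list between -0.11 and -0.33. The RA-raised and RA-lowered lists stayed the same side of 0 with a fold threshold of 0.58, with RA responses at T12 and with DESeq2. The fold threshold leaves changes under 1.5-fold uncalled at any depth.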
